A study of Homo sapiens with 12 samples.

Results

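Histone deacetylases and the corepressor subunits that carry them were measured in HEK293T cells, a line grown from human embryonic kidney. The 9 genes were listed by name. No cutoff on a measured value chose them, but earlier results of these data were known at the time. They are the class I deacetylases HDAC1, HDAC2, HDAC3 and HDAC8, the scaffolds SIN3A, SIN3B and NCOR1, and the histone chaperones RBBP4 and RBBP7. The 9 genes are among 60660 gene rows of the count files, and all 9 are among the 12830 coding genes that were tested.

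RNA-seq was performed on 12 libraries, 2 from each of 6 groups. The cells of every group were wild-type for genotype and received an siRNA, which the methods describe as transfected with a Lipofectamine reagent. The groups were control siRNA (siCTL) and siRNA against CARM1, an arginine methyltransferase (siCARM1), against CHD4 (siCHD4), HDAC2 (siHDAC2) or GATAD2A (siGATAD2A), all subunits of the NuRD complex, or against the lysine demethylase KDM1A (siKDM1A). The labels do not say whether libraries of a group came from separate cultures, so p-values measure the spread between these samples, which may be technical. Libraries were sequenced at either of 2 companies, and the labels do not tell which library went where. The methods list 2 siRNA sequences against CARM1 and do not say which served here.

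Class I deacetylases remove acetyl groups from lysines of histones and other proteins. HDAC1 and HDAC2 work inside multisubunit complexes, of which NuRD, SIN3, CoREST and the mitotic deacetylase complex are the best known. HDAC3 is active in the NCoR and SMRT complexes. RBBP4 and RBBP7 bind histones H3 and H4 and are shared by NuRD, SIN3 and further chromatin complexes.

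HDAC1 and HDAC2, as well as RBBP4 and RBBP7, are close paralogues, so a count on one gene depends on reads that tell it from the other. The coding sequences of the canonical transcripts of HDAC1 and HDAC2 were identical at 75.9% of aligned bases, and the longest identical run was 17 bases. For RBBP4 and RBBP7 these values were 76.3% and 26 bases, and for SIN3A and SIN3B 64.3% and 29 bases. Stretches of 60 coding bases from each of the first 2 pairs show how the paralogues are told apart. They are given 5′ to 3′ on the strand of the gene, with capitals at the 8 bases that differ from the paralogue. The HDAC1 stretch is in exon 2 of 14 (GRCh37 chr1:32768224-32768283, plus strand) and the HDAC2 stretch in exon 2 of 14 (chr6:114281121-114281180, minus strand). The RBBP4 stretch is in exon 6 of 12 (chr1:33134673-33134732, plus strand) and the RBBP7 stretch in exon 6 of 12 (chrX:16871806-16871865, minus strand).
HDAC1: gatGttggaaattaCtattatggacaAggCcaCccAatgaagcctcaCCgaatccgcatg
HDAC2: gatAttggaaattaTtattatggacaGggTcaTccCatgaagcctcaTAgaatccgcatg
RBBP4: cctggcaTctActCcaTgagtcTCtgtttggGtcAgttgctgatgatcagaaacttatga
RBBP7: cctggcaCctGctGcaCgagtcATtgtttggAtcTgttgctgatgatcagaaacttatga
Each pair of stretches is 86.7% identical. By the way they were picked, this lies above the identity of the whole coding sequences.

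The libraries held 19308315 to 28648657 counts on genes (median 24292682). CPM stands for the count scaled to the size of its library, here the counts on tested genes with TMM factors. FPKM is the count divided by exonic length and by the total count, and it is used where genes are compared with each other. The targeted genes were lower in their own knockdowns, to 19.2% of the siCTL level for CARM1, 68.9% for CHD4, 19.7% for HDAC2, 29.8% for GATAD2A and 16.6% for KDM1A. Among markers of HEK293 cells, NEFL and VIM were expressed, whereas NEFM and PAX2 stayed at or below 0.316 FPKM in each group mean. PTPRC, DCN, ESR1, SERPINA1 and TTR, which mark blood, fibroblast, MCF-7 breast cancer and liver cells, were at or below 0.0392 FPKM. KRT19, also used as an MCF-7 marker, reached 43.1 FPKM and COL1A1, also used as a fibroblast marker, 12.9 FPKM, so single genes of those lists were expressed. Summed over a list, group means ranged from 36.9 to 46.5 FPKM for MCF-7, 9.37 to 14.6 for fibroblast and 0.113 to 0.371 for hepatocyte markers.

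For each knockdown, differences from siCTL were tested in edgeR with 1 model of the 6 groups. To be called higher or lower, a gene had to differ by 1.2-fold or more, with a Benjamini-Hochberg adjusted p not above 0.05 over all genes tested. The limit on the adjusted p is that of the study's methods, and the fold is the one used in its results. Standard errors (SE) are on the log2 scale. All 5 comparisons share the 2 siCTL libraries. With 2 libraries a group, the smallest two-sided p of an exact permutation test is 0.333, so p-values were taken from edgeR's model. In these bulk samples, fewer cells that express a gene and less RNA of it per cell cannot be told apart. By this rule, some of the cell type markers changed with the knockdowns. VIM was higher in siCARM1 (log2 fold change 0.87), siCHD4 (0.81), siKDM1A (0.72) and siHDAC2 (0.40) and lower in siGATAD2A (-0.64), and NEFL was higher in siCARM1 (0.38) and siHDAC2 (0.29). GATA3, an MCF-7 marker, was lower in all knockdowns except siGATAD2A, from -0.51 in siCHD4 to -0.43 in siCARM1, and KRT19 was lower in siGATAD2A (-0.35) and siHDAC2 (-0.28). COL1A1 was lower in all except siKDM1A, from -0.47 in siCARM1 to -0.35 in siHDAC2, and LUM, also a fibroblast marker, was higher in siCARM1 (1.13), siKDM1A (0.81) and siHDAC2 (0.54). The part of these changes in the results on the 9 genes was not tested.

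Of the 45 log2 fold changes of the 9 genes against siCTL, 10 were called higher, 3 lower and 32 neither. In siCARM1, 2 genes were higher and 0 lower, where 14.9% and 14.4% of all tested genes were. In siCHD4, 1 was higher and 1 lower (24.0% and 24.8% of all tested genes). In siHDAC2, 2 were higher and 1, the target itself, was lower (10.6% and 8.94%). In siGATAD2A, 3 were higher and 1 lower (15.7% and 18.2%), the most of the 5 knockdowns. In siKDM1A, 2 were higher and 0 lower (14.2% and 11.4%). Over the 9 genes the median log2 fold change was largest in siGATAD2A at 0.24, then 0.17 in siCARM1, 0.09 in siCHD4, 0.06 in siHDAC2 and 0.05 in siKDM1A, whereas that of all genes tested lay between -0.0024 and 0.0051. The calls rested on a few genes. HDAC1 was higher in all 5 knockdowns, HDAC8 was called in all 5 but not in 1 direction, HDAC3 and RBBP7 were called in siGATAD2A, and SIN3A, SIN3B, NCOR1 and RBBP4 were called in none. A gene called in no knockdown was common, at 27.1% of all genes tested.

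**Figure D1:**
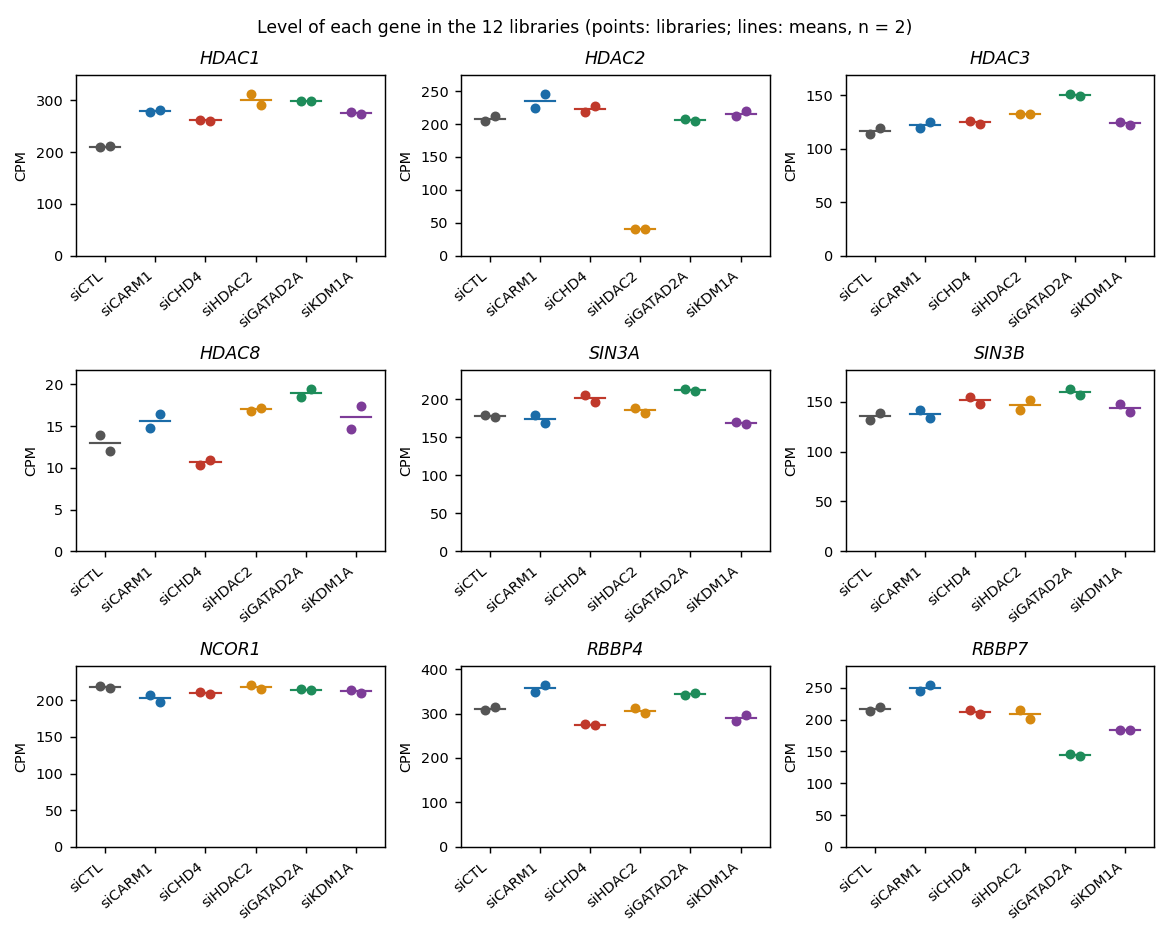
Level of each of the 9 genes in CPM (vertical axes, from 0) in the 6 groups (horizontal axes), with 1 point per library and a line at the mean of 2. HDAC1 lies between 260.1 and 312 CPM in the 10 knockdown libraries, above the 209.6 and 211 CPM of siCTL, HDAC2 drops to 40.8 and 41.03 CPM in siHDAC2, and RBBP7 is lowest in siGATAD2A.

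HDAC1, the deacetylase of NuRD and SIN3 that is closest to HDAC2, was higher in every knockdown. The gene (ENSG00000116478) lies on chromosome 1 of GRCh37 from 32757684 to 32799236, plus strand. It had 209.6 and 211 CPM in the siCTL libraries. It had 277 and 281 CPM in siCARM1, 263 and 260.1 in siCHD4, 312 and 291 in siHDAC2, 299 and 299 in siGATAD2A, and 278 and 274 in siKDM1A. All 10 knockdown libraries thus stood above both siCTL libraries, as they did for 8.77% of all genes tested. The log2 fold change was 0.52 in siHDAC2 (SE 0.041, adjusted p = 1.35e-11, edgeR), 1.43-fold. It was 0.51 in siGATAD2A (adjusted p = 4.76e-12), 0.41 in siCARM1 (9.98e-10), 0.39 in siKDM1A (3.15e-09) and 0.31 in siCHD4 (6.42e-08), all from edgeR. Of all genes tested, 2.28% were called higher in all 5 knockdowns.

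HDAC1 was thus higher with siRNAs against other genes as well as with that against its paralogue. Its mean level decreased in the order siHDAC2, siGATAD2A, siCARM1, siKDM1A, siCHD4 and siCTL. The first 2 of these differed by a log2 of 0.01 (adjusted p = 0.813, edgeR), siCARM1 was 0.10 below siGATAD2A (0.0396, under the fold minimum), siCARM1 and siKDM1A differed by 0.02 (0.768), and siCHD4 was 0.08 below siKDM1A (0.089). The largest difference among knockdowns, between siHDAC2 and siCHD4, was a log2 of -0.21 for siCHD4 against siHDAC2 (adjusted p = 4.06e-05, edgeR), which at 1.15-fold was under the fold minimum. None of the 10 pairs of knockdowns was therefore called for HDAC1. The control libraries also stood apart in how their fragments were counted. Fragments on no feature were 17.2% and 18.0% in siCTL against 18.5% to 21.2% in the knockdowns, and the part of this in the HDAC1 result was not tested.

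HDAC2, the target of siHDAC2, was called lower in that knockdown and in no other. The gene (ENSG00000196591) lies on chromosome 6 from 114254192 to 114332472, minus strand. It had 204 and 212 CPM in siCTL and 40.8 and 41.03 CPM in siHDAC2, which is -2.35 as a log2 fold change (SE 0.053, adjusted p = 8.77e-26, edgeR). The other groups had 224 and 246 CPM in siCARM1, 218 and 228 in siCHD4, 208 and 204 in siGATAD2A, and 212 and 219.7 in siKDM1A. Both siHDAC2 libraries were far below all others, and siCARM1 was slightly above siCTL. That last difference, a log2 of 0.17 (adjusted p = 0.00216, edgeR), was 1.13-fold and was not called. Along the order siCARM1, siCHD4, siKDM1A, siCTL and siGATAD2A no neighbours passed the test, with adjusted p from 0.152 to 0.817 (edgeR).

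The balance of HDAC1 and HDAC2 was compared per exonic length. HDAC2 made up 20.4% ± 0.325 (SD, n = 2) of their summed FPKM in siCTL and 3.39% ± 0.179 in siHDAC2. Its share was 15.1% ± 0.147 in siGATAD2A, 16.8% ± 0.523 in siKDM1A, 17.9% ± 0.818 in siCARM1 and 18.1% ± 0.597 in siCHD4. The HDAC2 share was thus lower than in siCTL in each knockdown, and outside siHDAC2 this went with the higher HDAC1 level. In siHDAC2 the HDAC1 level increased by 21.3 FPKM and the HDAC2 level decreased by 10.3 FPKM, so their sum was 73.9 ± 3.83 FPKM against 62.9 ± 0.397 in siCTL (SD, n = 2). The sum depends on the length used, because the annotated exons of HDAC2 cover 15333 bases and those of HDAC1 3966. Without division by length, the mean sum was lower in siHDAC2, at 342.6 CPM against 418.4 CPM in siCTL. Whether the sum rose or fell in siHDAC2 therefore turned on the length. With the lengths of the canonical transcripts, 9737 and 2118 bases, an alternative chosen after seeing the data, the sum was 138 ± 7.17 FPKM in siHDAC2 and 114 ± 0.659 in siCTL (SD, n = 2). Over all 4 class I deacetylases, the summed FPKM was 87.4 ± 1.17 in siCTL, 99.2 ± 0.280 in siCHD4, 102 ± 3.97 in siHDAC2, 105 ± 0.394 in siKDM1A, 107 ± 2.52 in siCARM1 and 115 ± 0.453 in siGATAD2A (SD, n = 2). The siCTL libraries had the lowest sum under both lengths. In CPM this order did not hold, since HDAC1 and HDAC2 together were lower in siHDAC2 than in siCTL. HDAC3 (132 CPM against 117 in siCTL) and HDAC8 (17 against 13) were higher in siHDAC2, but by less than that drop.

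**Figure D2:**
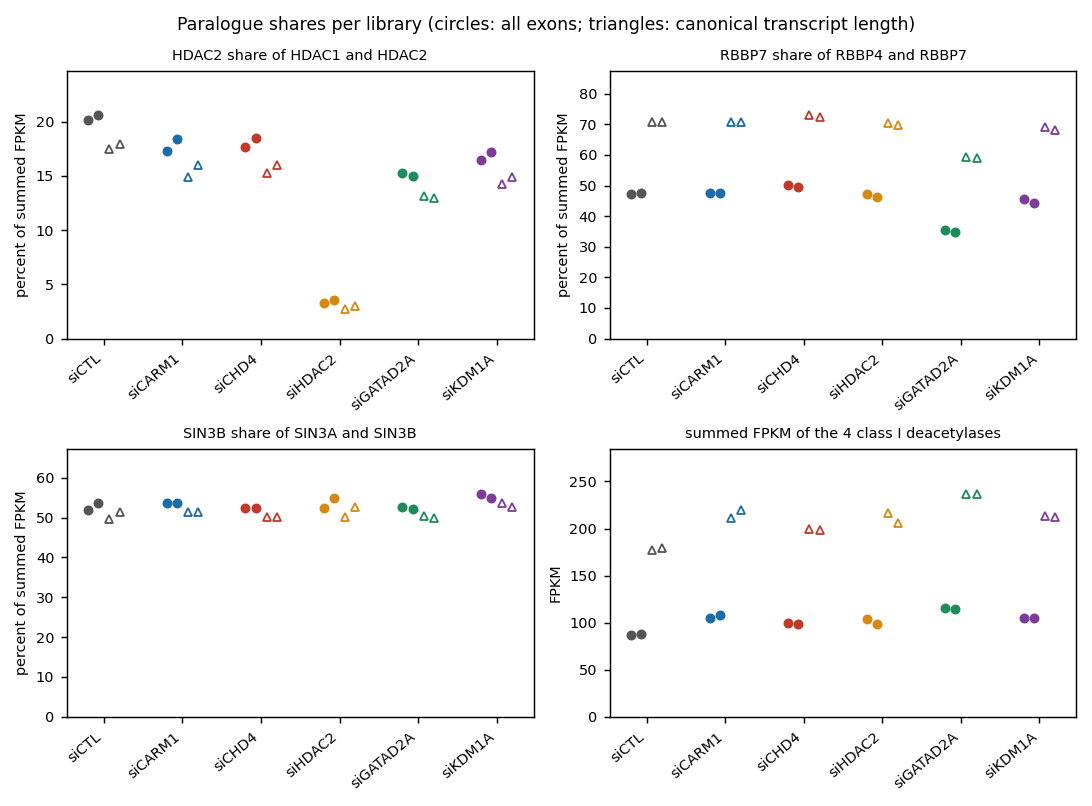
Shares of paralogues, in percent of their summed FPKM, and the summed FPKM of the 4 class I deacetylases (vertical axes) by group (horizontal axes), 1 point per library. Circles use the length of all annotated exons and triangles that of the canonical transcript. The HDAC2 share falls from 20.4% in siCTL to 3.39% in siHDAC2 and the RBBP7 share from 47.4% to 35.2% in siGATAD2A, with all exons.

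HDAC3, the catalytic subunit of the NCoR and SMRT complexes, was higher in siGATAD2A. The gene (ENSG00000171720) lies on chromosome 5 from 141000443 to 141016416, minus strand. It had 114 and 119.8 CPM in siCTL and 151 and 149 CPM in siGATAD2A, which is 0.36 as a log2 fold change (SE 0.047, adjusted p = 8.63e-08, edgeR). The other knockdown libraries lay lower, with 119.5 and 125 CPM in siCARM1, 126 and 123 in siCHD4, 133 and 132 in siHDAC2, and 125 and 123 in siKDM1A. Both siGATAD2A libraries were above the 10 others. The siGATAD2A level was also called above that of siCARM1 by a log2 of 0.30, siKDM1A by 0.28 and siCHD4 by 0.27 (adjusted p between 2.34e-06 and 7.35e-06, edgeR). Against siHDAC2 the log2 difference of 0.18 (adjusted p = 0.00142, edgeR) was under the fold minimum. In siHDAC2 the change from siCTL was 0.18 (adjusted p = 0.00299, edgeR), a fold of 1.13, and was not called.

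HDAC8, a class I enzyme that works outside the large corepressor complexes and is known to deacetylate the cohesin subunit SMC3, had the lowest level per exonic length of the 9 genes. The gene (ENSG00000147099) lies on chromosome X from 71549366 to 71792951, minus strand. It had 13.9 and 12.01 CPM in siCTL, 14.7 and 16.4 in siCARM1, 10.4 and 10.9 in siCHD4, 16.9 and 17.2 in siHDAC2, 18.4 and 19.4 in siGATAD2A, and 14.6 and 17.4 in siKDM1A. The siCHD4 libraries were below siCTL, and the libraries of the other 4 knockdowns were above it. The log2 fold change was 0.55 in siGATAD2A (SE 0.107, adjusted p = 6.5e-05, edgeR), 0.40 in siHDAC2 (0.00432), 0.32 in siKDM1A (0.0198) and 0.27 in siCARM1 (0.0447). It was -0.28 in siCHD4 (SE 0.116, adjusted p = 0.0361, edgeR). Of all genes tested, 9.45% had calls in opposite directions in different knockdowns.

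The HDAC8 values rested on 235 to 461 counts per library and had the largest standard errors of the 9 genes. Without siCTL replicate 2, the calls in siCARM1 (0.15, adjusted p = 0.399), siHDAC2 (0.29, 0.117) and siKDM1A (0.20, 0.269) were lost, and without siCTL replicate 1 that in siCHD4 (-0.18, 0.273), all from edgeR. Single libraries of the knockdowns mattered as well. The call in siCARM1 was lost without siCARM1 replicate 2 (0.19, 0.262), that in siKDM1A without siKDM1A replicate 2 (0.18, 0.308), and that in siCHD4 without siCHD4 replicate 1 (-0.25, 0.132) or replicate 2 (-0.32, 0.0586). The siCARM1 value sits so close to the threshold that leaving out any library of siCHD4, siHDAC2 or siGATAD2A also ended its call, with adjusted p from 0.0509 to 0.0538 (edgeR). The call in siGATAD2A held without each of the 12 libraries in turn, between 0.44 and 0.65. Stretches of 50 bases of the canonical transcript of HDAC8 were shared with a second annotated coding gene, ENSG00000285547, for 67.1% of them. Pairs that overlap both genes are counted on neither, so the level of HDAC8 is understated in all groups.

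**Figure D3:**
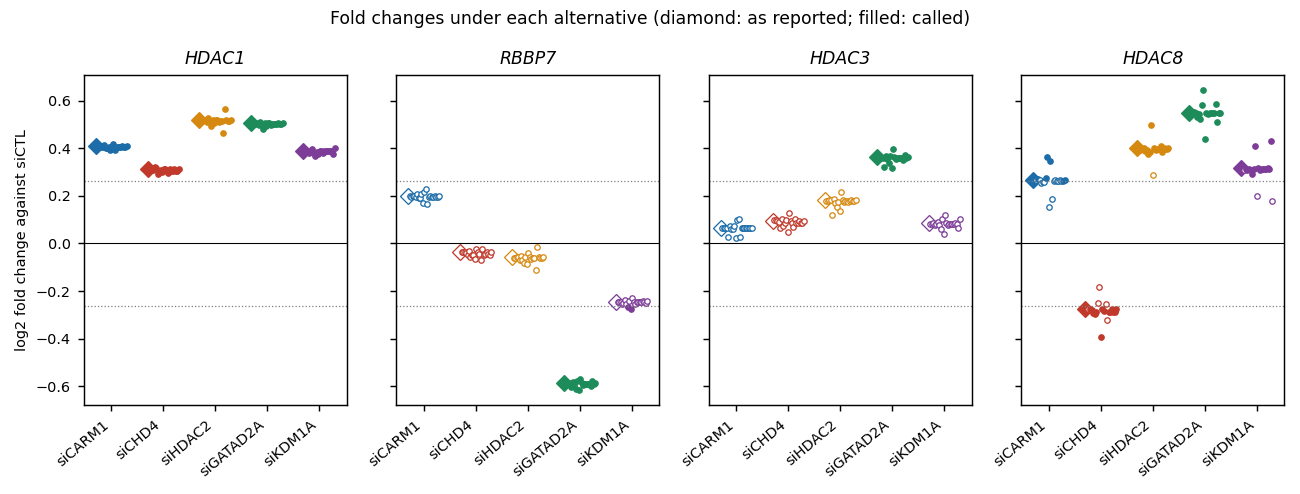
Log2 fold changes against siCTL (vertical axis) of HDAC1, RBBP7, HDAC3 and HDAC8 in the 5 knockdowns (horizontal axes). The diamond is the reported value, circles are the values under each alternative setting or with 1 library left out, filled symbols are called, and dotted lines mark a fold of 1.2. HDAC1 is filled throughout, whereas HDAC8 loses its call under several settings in siCARM1, siCHD4 and siKDM1A and holds it in siGATAD2A between 0.44 and 0.65.

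SIN3A and SIN3B are paralogous scaffolds on which HDAC1, HDAC2 and the RBBP proteins assemble. Neither was called in any knockdown. SIN3A (ENSG00000169375) lies on chromosome 15 from 75661720 to 75748183, minus strand. It had 179 and 176 CPM in siCTL, 213 and 211 in siGATAD2A, and 206 and 197 in siCHD4. These 4 knockdown libraries were the highest of the 12. The log2 fold change of 0.25 in siGATAD2A (SE 0.043, adjusted p = 1.15e-05, edgeR) was 1.19-fold, just under the fold minimum, and that in siCHD4 was 0.18 (adjusted p = 0.000531, edgeR). SIN3A had 179 and 169 CPM in siCARM1, 189 and 182 in siHDAC2, and 170.1 and 168 in siKDM1A. Between knockdowns, siGATAD2A was called above siKDM1A by a log2 of 0.33 (adjusted p = 1.75e-07) and above siCARM1 by 0.29 (1.53e-06, edgeR).

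SIN3B (ENSG00000127511) lies on chromosome 19 from 16940209 to 16991164, plus strand. It had 132 and 139 CPM in siCTL, 141 and 134 in siCARM1, 155 and 148 in siCHD4, 142 and 151 in siHDAC2, 162 and 157 in siGATAD2A, and 148 and 139.6 in siKDM1A. Its highest level was also in siGATAD2A, and its log2 fold change there was 0.24 (SE 0.049, adjusted p = 0.000156, edgeR), 1.18-fold and not called. None of the 10 pairs of knockdowns was called for SIN3B. As a share of the summed FPKM of the SIN3 scaffolds, SIN3B took 52.7% ± 1.25 in siCTL and between 52.4% ± 0.0172 in siCHD4 and 55.5% ± 0.789 in siKDM1A (SD, n = 2). The proportion of the SIN3 paralogues therefore ranged over 3.06 percentage points between group means, against 16.96 for HDAC2 and 14.7 for RBBP7.

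NCOR1, the scaffold that activates HDAC3 and links it to nuclear receptors, had the smallest changes of the 9 genes. The gene (ENSG00000141027) lies on chromosome 17 from 15932379 to 16121499, minus strand. It had 219 and 216 CPM in siCTL, 207 and 197 in siCARM1, 211 and 208 in siCHD4, 221 and 216 in siHDAC2, 215 and 214 in siGATAD2A, and 214 and 211 in siKDM1A. The siCARM1 libraries were the lowest, with a log2 fold change of -0.10 (SE 0.041, adjusted p = 0.0368, edgeR), 1.07-fold and not called. In an F test over all 6 groups, NCOR1 did not pass (adjusted p = 0.128, edgeR), and the other 8 genes did, as did 91.0% of all genes tested.

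RBBP4, the histone chaperone also known from chromatin assembly factor 1, was called between knockdowns but not against siCTL. The gene (ENSG00000162521) lies on chromosome 1 from 33116743 to 33151812, plus strand. It had 307 and 315 CPM in siCTL, 349 and 364 in siCARM1, 275 and 274 in siCHD4, 313 and 301 in siHDAC2, 343 and 345 in siGATAD2A, and 284 and 296 in siKDM1A. The siCARM1 and siGATAD2A libraries were above all others and the siCHD4 libraries below all others. Against siCTL no change reached 1.2-fold, with log2 values of 0.20 in siCARM1 (adjusted p = 0.000123), 0.14 in siGATAD2A (0.00272), -0.18 in siCHD4 (0.000193) and -0.10 in siKDM1A (0.0373) from edgeR. Between knockdowns the opposite directions did give calls. RBBP4 was higher in siCARM1 than in siCHD4 by a log2 of 0.38 (SE 0.039, adjusted p = 7.23e-10) and than in siKDM1A by 0.30 (3.17e-07), and it was lower in siCHD4 than in siGATAD2A by 0.32 on the log2 scale (1.66e-08, edgeR). Exons of SYNC on the opposite strand overlap 22.8% of the exonic bases of RBBP4. SYNC had 2.05 to 6.50 CPM in the group means, and with counts taken without regard to strand RBBP4 was again called in no knockdown.

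RBBP7, its paralogue, which also pairs with the acetyltransferase HAT1, was lower in siGATAD2A. The gene (ENSG00000102054) lies on chromosome X from 16857406 to 16888485, minus strand. It had 214 and 220.4 CPM in siCTL, 146 and 143 in siGATAD2A, and 184 and 183 in siKDM1A. The log2 fold change was -0.59 in siGATAD2A (SE 0.044, adjusted p = 8.41e-13, edgeR), 1.503-fold lower. It was -0.24 in siKDM1A (adjusted p = 3.04e-05, edgeR), 1.18-fold and not called. RBBP7 had 245 and 255 CPM in siCARM1, 215 and 208 in siCHD4, and 216 and 202 in siHDAC2. The siGATAD2A libraries were below the 10 others, followed by those of siKDM1A, and the siCARM1 libraries were above all others. In siCARM1 the change of 0.20 (adjusted p = 0.000259, edgeR) was 1.15-fold and not called.

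The decrease in siGATAD2A was also called against each of the other knockdowns. RBBP7 was higher than in siGATAD2A by a log2 of 0.79 in siCARM1 (SE 0.043, adjusted p = 5.41e-16), 0.55 in siCHD4 (1.69e-12) and 0.53 in siHDAC2 (1.32e-11), and siGATAD2A was at -0.34 against siKDM1A (9.54e-08), all from edgeR. RBBP7 was also higher in siCARM1 than in siKDM1A by 0.44 (adjusted p = 6.72e-10, edgeR). Its share of the summed FPKM of RBBP4 and RBBP7 was 47.4% ± 0.0812 in siCTL and 35.2% ± 0.360 in siGATAD2A (SD, n = 2). In the other groups it was between 44.9% ± 0.746 in siKDM1A and 49.9% ± 0.449 in siCHD4. In siCARM1, where both chaperones had higher means than in siCTL, the share was 47.4% ± 0.0412. With canonical transcript lengths the siCTL share was 70.7% ± 0.0675 and that of siGATAD2A 59.2% ± 0.381 (SD, n = 2), so which chaperone is the more abundant depends on the length.

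**Figure D4:**
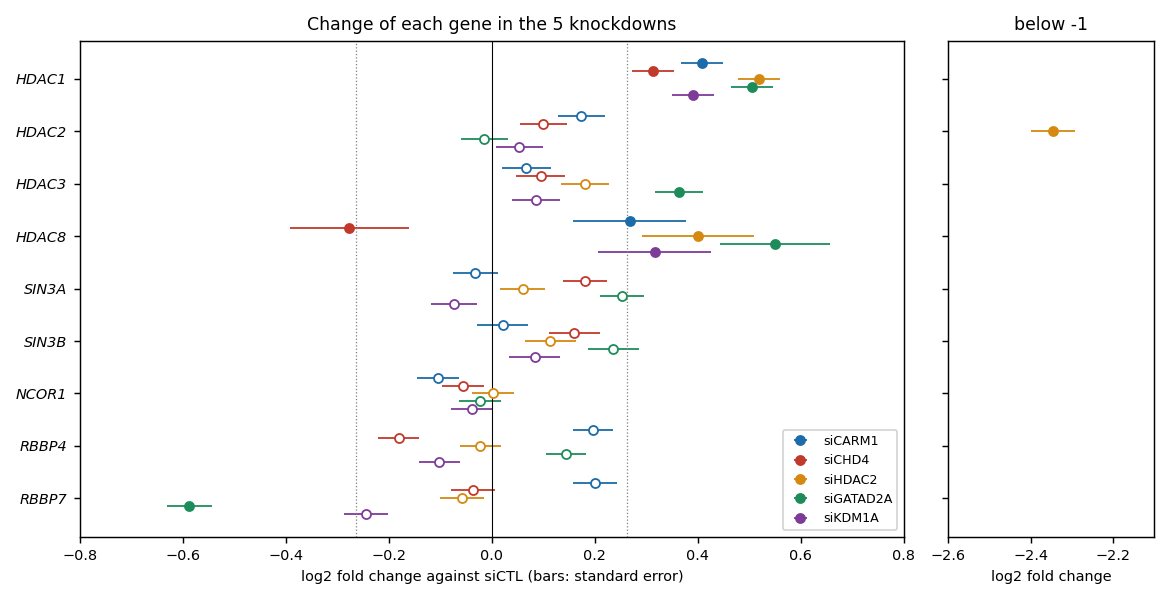
Log2 fold change against siCTL (horizontal axis, bars are standard errors) of the 9 genes (vertical axis) in the 5 knockdowns, with filled symbols for called values and dotted lines at a fold of 1.2. The right panel holds HDAC2 in siHDAC2, at -2.35. The 5 points of HDAC1 are filled and to the right, and RBBP7 in siGATAD2A is at -0.59.

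Knockdowns were compared with each other in 10 pairs, which share no siCTL library. Of the 90 log2 differences of the 9 genes, 22 were called, 4 of them for HDAC2 in pairs that include siHDAC2. Of all genes tested, 14.3% to 48.8% were called in a pair. RBBP7 and HDAC8 gave 5 calls each, HDAC3 and RBBP4 gave 3 each and SIN3A 2. Pairs with siGATAD2A held the most, but a difference of these counts from the shares of all genes tested was not tested. There were 4 of 9 genes called against siCARM1 (33.8% of all genes tested), 4 against siCHD4 (44.7%) and 3 against siKDM1A (32.0%). Against siHDAC2 there were 2 (29.4%), of which HDAC2 is 1. In the other pairs with siCHD4 there were 2 genes called against siCARM1 (47.7%), 2 against siHDAC2 (48.8%), of which HDAC2 is 1, and 1 against siKDM1A (47.7%). The remaining pairs gave 2 for siCARM1 and siKDM1A (20.9%), 1 for siCARM1 and siHDAC2 (19.3%) and 1 for siHDAC2 and siKDM1A (14.3%), both of the latter being HDAC2.

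Per exonic length, HDAC1 was the most abundant of the 9 genes in siCTL, at 50.1 ± 0.112 FPKM (SD, n = 2), and RBBP4 and RBBP7 followed at 31.0 ± 0.452 and 27.9 ± 0.498. HDAC3 had 23.9 ± 0.828, SIN3B 14.6 ± 0.502, NCOR1 13.2 ± 0.183, SIN3A 13.1 ± 0.208, HDAC2 12.8 ± 0.285 and HDAC8 0.535 ± 0.0569 FPKM. NCOR1 and SIN3A lay within their spread of each other, as did SIN3A and HDAC2, whereas both NCOR1 libraries were above both of HDAC2. With canonical transcript lengths HDAC1 (93.9 ± 0.209) stayed first and HDAC8 (6.98 ± 0.742) last, and RBBP7 at 89.9 ± 1.60 and HDAC3 at 57.0 ± 1.98 came before RBBP4 at 37.3 ± 0.543 FPKM (SD, n = 2).

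The partners with which these proteins work were counted from fixed lists, over all 5 knockdowns. Over all genes tested, 15.9% of the fold changes in these 5 comparisons were called higher and 15.6% lower, and no difference between a list and all genes was tested. Of 14 SIN3 complex partners, 3 of 70 fold changes were called higher and 8 lower. SAP30L, a SIN3 subunit, was lower in all 5, from -0.78 in siCARM1 to -0.36 in siGATAD2A on the log2 scale. Its relative SAP30 was higher in siCHD4 (0.36) and lower in siGATAD2A (-0.51). Of 5 NCoR and SMRT partners, 3 of 25 were higher and 5 lower. Among them CORO2A was lower in siGATAD2A (-0.66), and GPS2 in siCARM1 (-0.71). Of 3 mitotic deacetylase complex partners, 0 of 15 were higher and 5 lower, with TRERF1 at -0.53 in siGATAD2A and the scaffold MIDEAS at -0.34 in siKDM1A.

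Of 55 fold changes of 11 NuRD partners, 12 were called higher and 11 lower, among them the knocked-down targets CHD4 and GATAD2A. MTA1, a subunit that recruits HDAC1 and HDAC2, was higher in siHDAC2 (0.41), siKDM1A (0.39), siGATAD2A (0.37) and siCARM1 (0.30), and at 0.14 in siCHD4 it was not called. In siCHD4, the remodeller CHD5 (2.05) and GATAD2A (1.09) were higher. CHD5 had a mean of 0.143 FPKM in siCTL and 0.587 in siCHD4. It thus met the minimum of 0.5 FPKM for testing through siCHD4, so the direction of that call is not independent of the filter. Of 9 CoREST partners, 4 of 45 fold changes were higher and 4 lower, with RCOR2 at 1.06 in siCHD4 and the target KDM1A at -2.59 in siKDM1A. Of 13 genes of other RBBP4 and RBBP7 complexes, 6 of 65 were higher and 2 lower. SMARCA1, the remodelling ATPase of NURF, was higher in 4 knockdowns, from 0.28 in siHDAC2 to 0.55 in siCARM1, and the acetyltransferase HAT1 was lower in siCHD4 (-1.07).

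Other enzymes of histone acetylation were examined likewise. Of 6 tested class II and IV deacetylases out of 7 listed, 4 of 30 fold changes were higher and 7 lower. HDAC9 was higher in siGATAD2A (0.82), siKDM1A (0.75) and siCHD4 (0.62). At 0.349 FPKM in siCTL, it met the minimum of 0.5 FPKM for testing through knockdowns where it was called higher, such as siGATAD2A (0.616 FPKM). The direction of these calls is therefore not independent of the filter. The tubulin deacetylase HDAC6 was lower in siCHD4 (-0.58) and siCARM1 (-0.29). Of 7 sirtuins, 3 of 35 were higher and 8 lower, with SIRT4 at -0.85 in siCARM1 and SIRT2 at -0.63 in siCHD4. Of 9 acetyltransferases, 1 of 45 was higher and 7 lower. KAT5, known as TIP60, was lower in 4 knockdowns, from -0.47 in siKDM1A to -0.28 in siCHD4, and KAT2B was lower in siCHD4 (-1.23). Of 6 genes known to rise with deacetylase inhibitors, 4 of 30 fold changes were higher and 13 lower. Within this list GSN, the actin-severing protein gelsolin, was lower in all 5 knockdowns, from -1.04 in siGATAD2A to -0.38 in siHDAC2. In siGATAD2A, 5 of the 6 were lower, with a median of -0.93 and CLU, the chaperone clusterin, at -1.13. In siHDAC2 the list had 1 gene higher and 1 lower, at a median of -0.02.

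**Figure D5:**
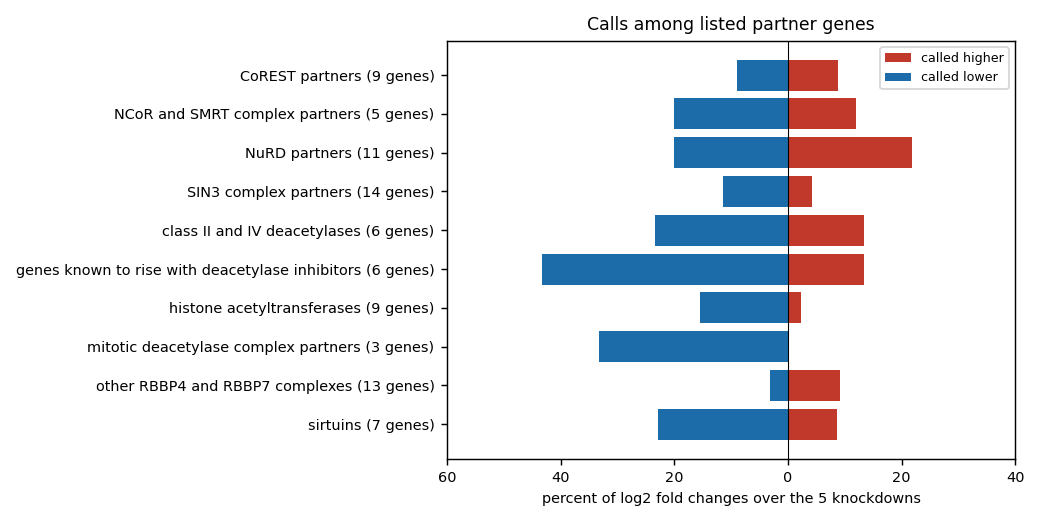
Percent of the log2 fold changes of each partner list over the 5 knockdowns (horizontal axis) called higher (red, to the right) or lower (blue, to the left), with the number of genes tested beside each list. NuRD partners have 12 higher and 11 lower calls of 55, and genes known to rise with deacetylase inhibitors have 13 lower calls of 30.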

How the data were processed

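Total RNA was sequenced as paired ends with a directional kit. Counts of read pairs on Ensembl genes were deposited by the authors without normalization, and the submitters' processing notes name STAR 2.7.10, CASAVA 1.4 and hg19, whereas the methods name TopHat, HOMER and DESeq2 for their own analysis. The annotation version is not given in the sources used here. Identifiers were matched to GENCODE on GRCh37, and 1954 without a match (1.75% to 2.61% of counts) and 44 copies on chromosome Y were left out. Reverse-strand counts were used. Coding genes with FPKM above 0.5 in the mean of at least 1 group were tested with edgeR 4.0.16 (TMM, robust quasi-likelihood, Benjamini-Hochberg), with 1 spread from all 12 libraries. The standard error is the log2 fold change divided by the square root of F. Replicates differed by more than sampling noise (chi-square per degree of freedom 1.77 to 4.97). DESeq2 1.42.0, other filters, scalings and left-out libraries were alternatives. Paralogues were aligned with Biopython 1.88. The fits were tested on simulated data with known changes. The 9 genes and all lists were chosen with earlier results of these data known. All 9 genes were named. From each list, named genes were the 2 largest called changes and any gene called the same way in at least 4 knockdowns, and for each of the 9 genes the 2 most alike over the libraries. Some items are not reported here.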

Additional observations from a re-analysis of the deposited data

Results flagged for a closer look

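HDAC8 had a lower call in siCHD4 and a higher one with each of the 4 other siRNAs, and its difference between siCHD4 and each of them was itself past the threshold in edgeR. These pairs were picked by their calls, which fix that outcome, so no p-value is given beside the log2 differences. The difference was 0.54 for siCARM1 minus siCHD4 (standard error 0.110), -0.68 for siCHD4 minus siHDAC2 (0.109), -0.83 for siCHD4 minus siGATAD2A (0.107) and -0.59 for siCHD4 minus siKDM1A (0.110). The mean level was 10.6 ± 0.371 CPM in siCHD4, 13.0 ± 1.33 in siCTL, and between 15.6 ± 1.18 in siCARM1 and 18.9 ± 0.679 in siGATAD2A (SD, n = 2).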

How the results depend on the processing

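Uncalled values have no direction, so a change of sign in them was not counted as a reversal, and no called value reversed. HDAC1 in all 5 knockdowns, HDAC2 in siHDAC2, and HDAC3, HDAC8 and RBBP7 in siGATAD2A were called under every alternative that tested them. With no fold minimum, the genes called numbered 6 in siCARM1, 5 in siCHD4, 7 in siGATAD2A, 4 in siKDM1A and 51 between knockdowns. DESeq2, and a minimum of FPKM above 1, under which HDAC8 was not tested, each gave 1 in siCARM1, 1 in siCHD4 and 1 in siKDM1A. In siCARM1 the number was also 1 in a fit of siCTL and siCARM1 alone, with unstranded counts, with every coding gene that had at least 1 count, and with filterByExpr over all biotypes, and in siCHD4 it was 1 with libraries thinned to the smallest. The calls against siCTL that were lost were those of HDAC8. RBBP7 in siKDM1A was called with filterByExpr (-0.27) and without siCTL replicate 1 (-0.27), and SIN3B in siGATAD2A without siCTL replicate 2 (0.27). With each library left out in turn, the number called was 1 to 2 in siCARM1, 1 to 2 in siCHD4, 2 to 3 in siHDAC2, 4 to 5 in siGATAD2A, 1 to 3 in siKDM1A and 21 to 23 between knockdowns, and HDAC1 in siHDAC2 lay between 0.46 and 0.57. A lone library is then assumed to vary like the other groups. Canonical transcript length, added after seeing the data, moved the summed class I FPKM to 178 in siCTL and 237 in siGATAD2A.

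The replicate numbers did not pair the libraries, since deviations of same-numbered libraries correlated between -0.206 and 0.195 over pairs of groups. With the replicate number as a block, 2, 2, 3, 4 and 2 genes were called in siCARM1, siCHD4, siHDAC2, siGATAD2A and siKDM1A, as without it, and 22 between knockdowns, and HDAC1 in siHDAC2 was at 0.52.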

Other observations

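For each of the 9 genes, the tested genes with the most similar levels over the 12 libraries were found by Pearson's r of log2 CPM. The 12 points share 6 groups and their depths, so r is a description and has no p-value. HDAC1 was most like the zinc finger gene ZNF585B (r = 0.976) and CYB5RL (0.964). HDAC2 was most like ATP5MC3, a subunit of mitochondrial ATP synthase (0.989), and NKAPD1 (0.957). ATP5MC3 was lower in siHDAC2, at a log2 fold change of -0.87, and both values rest on the 2 siHDAC2 libraries. RBBP7 was most like FSTL1, a secreted glycoprotein (0.990), and the serine protease HTRA1 (0.980). FSTL1 changed by -0.66 and HTRA1 by -1.67 in siGATAD2A on the log2 scale. The nearest genes were SREBF1 (0.951) and SLC35C2 (0.943) for HDAC3, AMN1 (0.950) and ZNF260 (0.943) for HDAC8, and TANGO2 (0.955) for SIN3A. They were NUTM2B (0.957) and FBXL12 (0.948) for SIN3B, RBM23 (0.942) and C1S (0.925) for NCOR1, and DHX15 (0.948) and PFN2 (0.939) for RBBP4.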
